A study of Mus musculus with 7 samples.

Results

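The mitochondrial genome of the mouse carries 37 genes, and all 37 had a row among the 54347 genes of the count table from sorted long-term haematopoietic stem cells (LT-HSCs) with and without Emcn. They were taken by identifier, as the run of GENCODE identifiers given to this genome plus that of mt-Nd4l. They comprised 2 rRNA genes, 13 protein-coding genes and 22 tRNA genes. The version of the identifier matched GENCODE M21 (GRCm38) for 37 of 37, and that annotation supplied the names and positions. LT-HSCs sit at the top of blood formation and can renew all blood lineages. They came from hind leg marrow of female mice of the strain labelled C57BL/6N-EMCN em1(IMPC)Wtsi /WtsiH, and each library held 3000 to 5000 cells of 1 mouse. The 4 WT libraries (wt_284, wt_290, wt_310 and wt_312) were Emcn+/+ littermates, and the 3 KO libraries (ko_306, ko_314 and ko_320) were Emcn-/-, without endomucin, a sialomucin of the cell surface. It is a germline allele, carried by all cells of the mouse, and no treatment is labelled. No source used here gives the age of the mice. In bulk libraries such as these, fewer cells of a type and less RNA per cell cannot be told apart. Below, WT values are listed in the order wt_284, wt_290, wt_310 and wt_312 and KO values in the order ko_306, ko_314 and ko_320. A mean ± SD is over these 4 and 3 mice unless said otherwise.

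The genome is a small circle that is transcribed from both strands into long precursors. The tRNAs lie between most rRNA and protein-coding genes, and they are cut out of the precursor at both ends, which releases the neighbouring RNAs. The rRNAs build the mitochondrial ribosome, and the protein-coding genes supply core subunits of respiratory complexes I, III and IV and of ATP synthase (complex V), whose other subunits come from nuclear genes. Quiescent LT-HSCs are known for low respiration and a strong use of glycolysis.

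Library totals ran from 6444134 to 11101774 counts, with 18507 to 23317 genes detected. Emcn had 130, 327, 223 and 216 counts in the WT libraries, in the order above, and 1, 0 and 0 in KO. The summed level of 10 stem cell markers (among them Kit, Ly6a, Slamf1 and Procr) was 1256 to 1957 CPM (counts per 1e6 of the TMM-scaled library) in WT and 1730 to 1996 CPM in KO, with 0 of the 10 absent from KO. wt_284 stood apart. The sum of 14 myeloid markers such as Mpo and Elane reached 12180 CPM there, with 243 to 1160 CPM for the other WT mice and 215 to 592 CPM for KO, and 14 of the 14 were highest in wt_284. The sum of 12 erythroid markers was 652 to 5329 CPM in WT and 657 to 899 CPM in KO, and that of 10 lymphoid markers 10.3 to 219 CPM and 11.5 to 15.7 CPM, both highest in wt_284. The 6 mast cell and basophil markers summed to 8.86 to 91.3 CPM in WT and 0 to 8.09 CPM in KO. All 6 were highest in wt_284. The 6 megakaryocyte markers summed to 56.4 to 158 CPM and 88.6 to 123 CPM, and the 6 endothelial and stromal markers to 76.7 to 91.7 CPM and 81.6 to 95.5 CPM. Every KO library lay below every WT library for 3 of 14 myeloid, 2 of 12 erythroid and 1 of 10 lymphoid markers. The same held for 2 of 6 mast cell and basophil, 1 of 10 stem cell, 0 of 6 megakaryocyte and 0 of 6 endothelial and stromal markers. Over all tested genes the share placed so was 2.43%. In each list 0 markers had every KO library above every WT library. Gzmb, Cdh5, Cd3e and Cd3g were at 0 in every KO library, below a limit of 3 counts (0.258 to 0.447 CPM) and not shown to be absent. Many genes of their lists had low counts. The filter on low counts was passed by 4 of 10 lymphoid, 4 of 6 mast cell and basophil and 4 of 6 endothelial and stromal markers. The share of all genes at 0 in every KO library was not counted.

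Sequences bear on these values in 2 ways, since a short read counts for a gene only as far as its bases tell that gene from others. A block of 7 pseudogenes on chromosome 1, from 24611535 to 24616197 of GRCm38 on the minus strand, repeats all or part of 7 protein-coding genes nearly letter for letter. For 5 of the pairs (mt-Co3 with Gm28437, mt-Atp6 with Gm10925, mt-Co2 with Gm28661, mt-Nd4 with Gm28439 and mt-Nd4l with Gm10222) the matched stretch of 294 to 876 bases held 0 mismatches. mt-Nd3 and its copy Gm28438 differed at 1 of 345 bases, T3C (the base of mt-Nd3, its position from the start of the gene, the base of the copy), at position 9461 of the mitochondrial genome. mt-Co1 and Gm29216 differed at 1 of 483 bases, A1066T. The opening 60 bases of mt-Nd3 (chrM:9459-9518, plus strand) and of Gm28438 (chr1:24613060-24613119, minus strand), from the GENCODE M21 transcripts, show the single difference in capitals.
mt-Nd3: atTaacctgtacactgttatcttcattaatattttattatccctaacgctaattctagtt
Gm28438: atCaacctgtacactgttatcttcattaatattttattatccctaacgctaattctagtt

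Neighbouring mitochondrial genes also share bases. The reading frames of mt-Atp8 and mt-Atp6 overlap by 43 bases and those of mt-Nd4l and mt-Nd4 by 7 bases, and each pair sits on 1 mRNA. The end of mt-Atp8 (chrM:7895-7969), the start of mt-Atp6 (chrM:7927-8001), the end of mt-Nd4l (chrM:10134-10173) and the start of mt-Nd4 (chrM:10167-10206), all on the plus strand, have the shared bases in capitals.
mt-Atp8: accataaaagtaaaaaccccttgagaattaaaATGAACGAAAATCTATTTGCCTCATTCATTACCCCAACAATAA
mt-Atp6: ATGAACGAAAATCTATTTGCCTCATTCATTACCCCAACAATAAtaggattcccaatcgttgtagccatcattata
mt-Nd4l: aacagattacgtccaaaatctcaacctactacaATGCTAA
mt-Nd4: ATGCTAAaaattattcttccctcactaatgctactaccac

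The tRNA genes are 59 to 75 bases long, shorter than the 204 to 1824 bases of the protein-coding genes. Those of glycine (mt-Tg, chrM:9391-9458), histidine (mt-Th, chrM:11546-11612) and valine (mt-Tv, chrM:1025-1093) were among the 4 with the most counts and are shown with the anticodon in capitals.
mt-Tg: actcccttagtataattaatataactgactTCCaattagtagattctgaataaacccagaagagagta
mt-Th: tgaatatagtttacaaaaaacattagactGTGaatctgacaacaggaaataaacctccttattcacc
mt-Tv: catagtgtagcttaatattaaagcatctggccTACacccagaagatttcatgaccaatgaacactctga

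The mitochondrial genome supplied 11.6% to 15.8% of the counts of a library, and the genotypes overlapped. Its share was 11.6%, 13.1%, 15.1% and 12.4% in wt_284, wt_290, wt_310 and wt_312, and 13.1%, 14.0% and 15.8% in ko_306, ko_314 and ko_320. WT averaged 13.04% ± 1.48 (SD, n = 4) and KO 14.3% ± 1.33 (SD, n = 3), a difference of 1.25 percentage points that is smaller than the spread between the WT mice. That difference depended on single mice: it was 0.518 points without ko_320, 0.776 without wt_284, 1.92 without wt_310 and 0.582 with only the mice numbered above 300. The 2 rRNA genes made up most of it, 87.8% to 88.8% of mitochondrial counts in every library. Their share of the library averaged 11.5% ± 1.26 for WT and 12.6% ± 1.16 for KO. The protein-coding genes held 1.52% ± 0.23 and 1.69% ± 0.178, and with the counts of the nuclear copies added 1.61% ± 0.23 and 1.82% ± 0.153. These shares are sums over the members and were described without a test.

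The tRNA genes together held very few counts, and the libraries differed far more in them than in the other classes. They had 960, 554, 137 and 64 counts in wt_284, wt_290, wt_310 and wt_312, and 235, 40 and 35 in ko_306, ko_314 and ko_320. As a share of the library this was 0.0105%, 0.00537%, 0.00213% and 0.000831% in WT and 0.00212%, 0.000602% and 0.000434% in KO. The 2 groups overlapped, since ko_306 lay above wt_312 and next to wt_310. The difference of means, -0.00365 percentage points, was smaller than the WT SD of 0.0043 (n = 4; KO SD 0.000927, n = 3). It was -0.00172 points without wt_284 and -0.000428 points with only the mice numbered above 300.

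**Figure D1:**
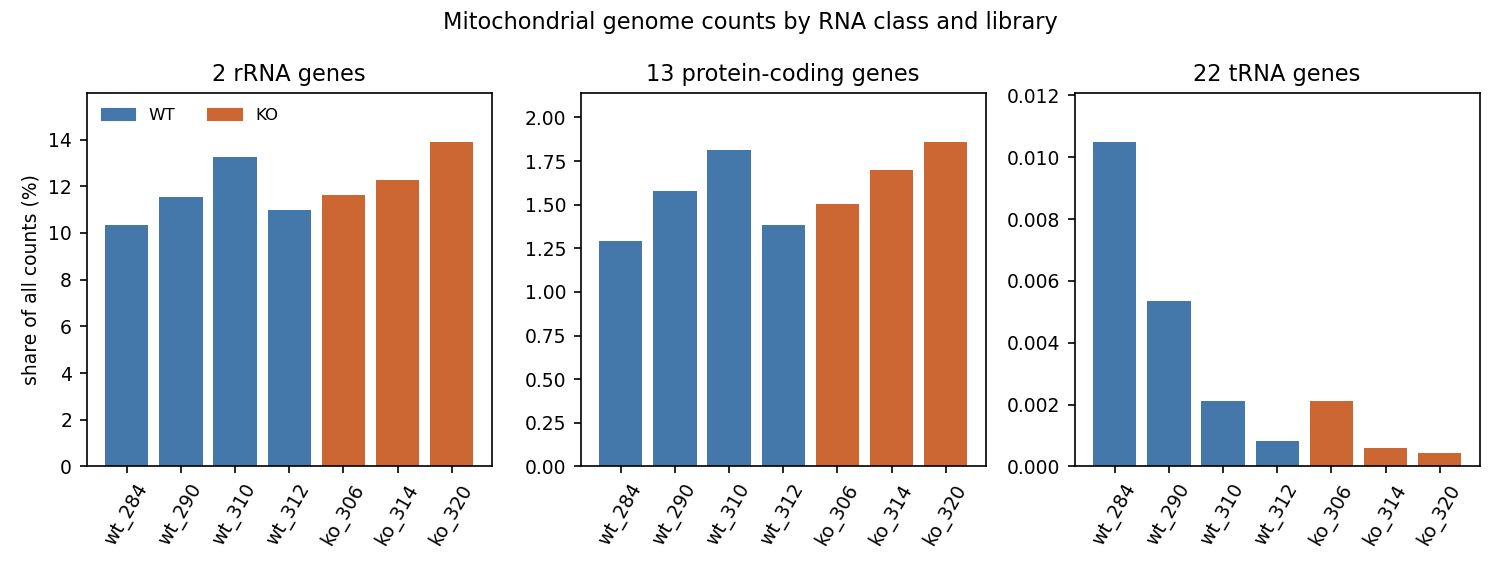
Share of all counts (percent, vertical axis) held by the 2 rRNA, 13 protein-coding and 22 tRNA genes in each library, with WT in blue and KO in orange; each bar is 1 mouse and each panel has its own scale. The rRNA share lies between 10.3% and 13.9% in all 7 libraries, while the tRNA share runs from 0.0105% in wt_284 to 0.000434% in ko_320.

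No mitochondrial gene passed the threshold between the genotypes. Of 37 genes, 20 passed the filter on low counts, namely both rRNA genes, all 13 protein-coding genes and 5 of the 22 tRNA genes. In edgeR's quasi-likelihood test with Benjamini-Hochberg adjustment over 15372 genes, 0 of these 20 were called at 0.05, where 0.00651% of all tested genes were called (1 gene, Emcn, lower in KO). The 20 genes had adjusted p of 0.992 each. At an unadjusted p under 0.05 there were 2 of the 20, mt-Th and mt-Tk, against 3.27% of all tested genes. DESeq2 called 0 of the 37 genes (0.0772% of 16847 genes were called, 0.0119% higher and 0.0653% lower), with a smallest adjusted p of 0.448 and no adjusted p for 12 of them. The 20 fold changes had a median of 0.09 on the log2 scale (KO minus WT), beside -0.02 over all tested genes. In CPM the groups overlapped for 20 of the 20, while they were fully apart for 2.43% of tested genes with KO higher and for 2.43% with KO lower.

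Of the rRNAs, mt-Rnr2 (large subunit) was the most abundant mitochondrial RNA and mt-Rnr1 (small subunit) the next. mt-Rnr2 had 682307, 845779, 614833 and 600154 counts in WT and 922068, 577371 and 780951 in KO. Per kilobase of gene it averaged 52720 ± 4683 CPM for WT and 55830 ± 6456 CPM for KO, with a log2 fold change of 0.08 ± 0.12 (SE). mt-Rnr1 stood at 34680 ± 2448 CPM per kb in WT and 38700 ± 6138 CPM per kb in KO, with 0.16 ± 0.13 (SE). ko_320 was the highest library for both, and without it the values were 0.01 and 0.045. Libraries of this kit type cut away part of the cDNA of ribosomal RNA before sequencing. No source used here says how far that step reached the mitochondrial rRNAs, and their levels are those left in the library. The ratio of mt-Rnr2 to mt-Rnr1, per base, was 1.57, 1.48, 1.55 and 1.48 in WT and 1.51, 1.46 and 1.38 in KO. The 2 rRNAs come from 1 precursor. The log2 difference of their ratio was -0.07, with a two-sided exact permutation p of 0.20, or 0.80 adjusted over the 4 ratios tested. The smallest p that 4 against 3 libraries can give is 0.0286.

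Among the protein-coding genes, 11 of 13 had positive log2 fold changes and 2 negative, with a median of 0.15, and 0 passed the threshold. The 2 negative values were mt-Co3 at -1.90 ± 1.65 (SE) and mt-Nd3 at -1.74 ± 1.39 (SE), both genes with a chromosome 1 copy. The part of the pair's counts assigned to the copy varied widely between libraries for mt-Co3. It was nearly all for mt-Nd3. mt-Co3, a subunit of cytochrome c oxidase (complex IV), had 3772, 2974, 5439 and 830 counts in WT and 2087, 1057 and 0 in KO. Its copy Gm28437, identical over 783 bases, had 3071, 6765, 982 and 3833 counts in WT and 7225, 4245 and 7778 in KO. The copy thus held from 15.3% (wt_310) to 100% (ko_320) of the pair, with no separation of the genotypes. The sum of the pair was 6843, 9739, 6421 and 4663 in WT and 9312, 5302 and 7778 in KO. The coefficient of variation over the 7 libraries, in CPM, was 97.1% for mt-Co3 alone and 16.1% for the sum. With the copies added, mt-Co3 had a log2 fold change of 0.05 ± 0.17 (SE), the opposite sign.

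mt-Nd3, a membrane subunit of complex I, was nearly absent under its own identifier. It had 16, 11, 42 and 7 counts in WT and 25, 0 and 0 in KO, while Gm28438 had 495, 784, 477 and 245 in WT and 720, 329 and 497 in KO. The copy held 91.9% to 100% of the pair in every library, although only T3C separates the printed stretches. With the copy added the coefficient of variation went from 124% to 26.1% and the log2 fold change to -0.08 ± 0.27 (SE). Reads over identical bases cannot be told apart. Reads over T3C could be, but the reads, and the base that these mice carry there, were not examined. For this and every other pair, which of the 2 loci the counts came from was not tested.

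mt-Atp6, the subunit of ATP synthase that forms part of the proton path, was paired with the copy Gm10925. It had 15838, 20542, 16827 and 20934 counts in WT and 17011, 18885 and 22311 in KO, and the copy had 3831, 4022, 1886 and 73 in WT and 7346, 0 and 0 in KO. Adding the copy lowered the coefficient of variation from 23.3% to 11.8% and left the log2 fold change near 0, at 0.06 ± 0.23 before and 0.01 ± 0.14 (SE) after. Gm28661 held 0% to 16.1% of its pair with mt-Co2, and there the coefficient of variation rose from 12.7% to 16.0% with the copy added. Gm29216 held 0.0863% to 5.69% of its pair with mt-Co1. Gm10222 held up to 9.94% of its pair with mt-Nd4l and Gm28439 up to 1.37% of its pair with mt-Nd4. A further 4 copies, Gm13340, Gm13341 and Gm13339 on chromosome 2 and Gm4076 on chromosome 13, matched at 95.2% to 97.6% and held at most 71 counts each over the 7 libraries. The 11 copies together held 0.0938% ± 0.0397 of WT counts and 0.13% ± 0.0613 of KO counts.

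**Figure D2:**
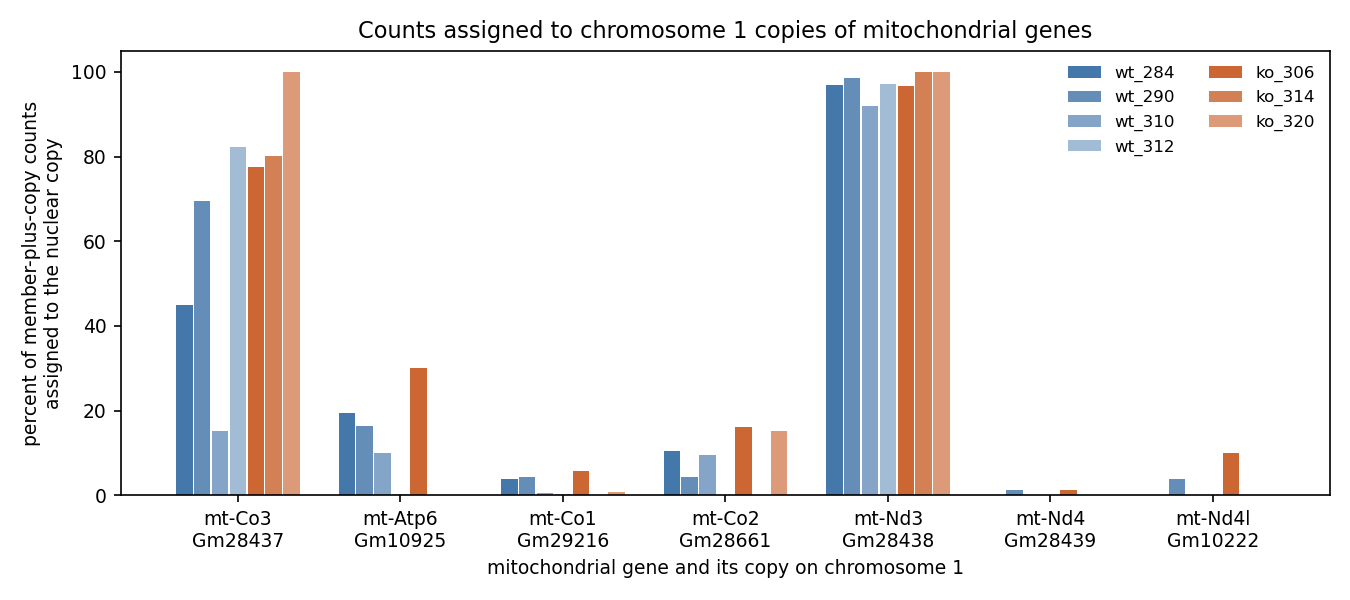
Percent of the counts of each pair (mitochondrial gene plus chromosome 1 copy) that the deposited table assigns to the copy, with 1 bar per library, WT in shades of blue and KO in shades of orange. The copy of mt-Nd3 holds 91.9% or more in all 7 libraries, and the copy of mt-Co3 holds 15.3% in wt_310 and 100% in ko_320.

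With the copies added, 12 of 13 protein-coding genes had log2 fold changes above 0, over a range from -0.08 (mt-Nd3) to 0.30 (mt-Cytb), and 0 passed (0.00651% of 15366 tested genes were called). Their median was 0.16. The 95% intervals of the 2 rRNA and 13 protein-coding genes all lay between -0.67 and 0.69 on the log2 scale. mt-Cytb, cytochrome b and the only mitochondrially encoded subunit of complex III, had the largest value, 0.30 ± 0.16 (SE) with an interval from -0.04 to 0.65. Its level was 1481, 1794, 2036 and 1664 CPM per kb in WT and 1786, 2032 and 2633 CPM per kb in KO. ko_320 was above every WT library, while ko_306 lay below wt_290 and ko_314 below wt_310. Without ko_320 the deposited row gave 0.15. mt-Nd4l, a small membrane subunit of complex I, was the only rRNA or protein-coding gene whose groups were apart, and only with the copy added. It stood at 543, 639, 638 and 400.0 CPM per kb in WT and 689, 665 and 673 CPM per kb in KO, while the deposited row alone overlapped (ko_306 below wt_310). That is 1 of 15 genes, where 2.43% of all tested genes had KO fully above WT. Its adjusted p in edgeR was 0.992 with the copy added.

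Complex I genes had log2 fold changes of 0.12 ± 0.18 (mt-Nd1), 0.08 ± 0.14 (mt-Nd2), 0.20 ± 0.17 (mt-Nd4), 0.28 ± 0.17 (mt-Nd4l), 0.19 ± 0.13 (mt-Nd5) and 0.16 ± 0.24 (mt-Nd6), each with SE, beside mt-Nd3 above. Of the complex IV genes, mt-Co1, the catalytic core, had 0.15 ± 0.13 and mt-Co2, which takes electrons from cytochrome c, had 0.16 ± 0.16 (SE). mt-Atp8, a small membrane subunit of ATP synthase, had 0.19 ± 0.16 (SE). The values that carry a nuclear copy are those with the copy added. Shares by complex were also close: complex IV held 41.5% ± 1.43 of protein-coding counts in WT and 41.3% ± 0.565 in KO, and complex I 28.0% ± 1.36 and 28.5% ± 1.17. Complex V held 18.2% ± 1.94 in WT and 16.7% ± 1.42 in KO. Complex III, which is mt-Cytb alone here, held 12.3% ± 1.04 in WT and 13.5% ± 1.09 in KO, and its groups overlapped although the means lay more than 1 SD apart.

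**Figure D3:**
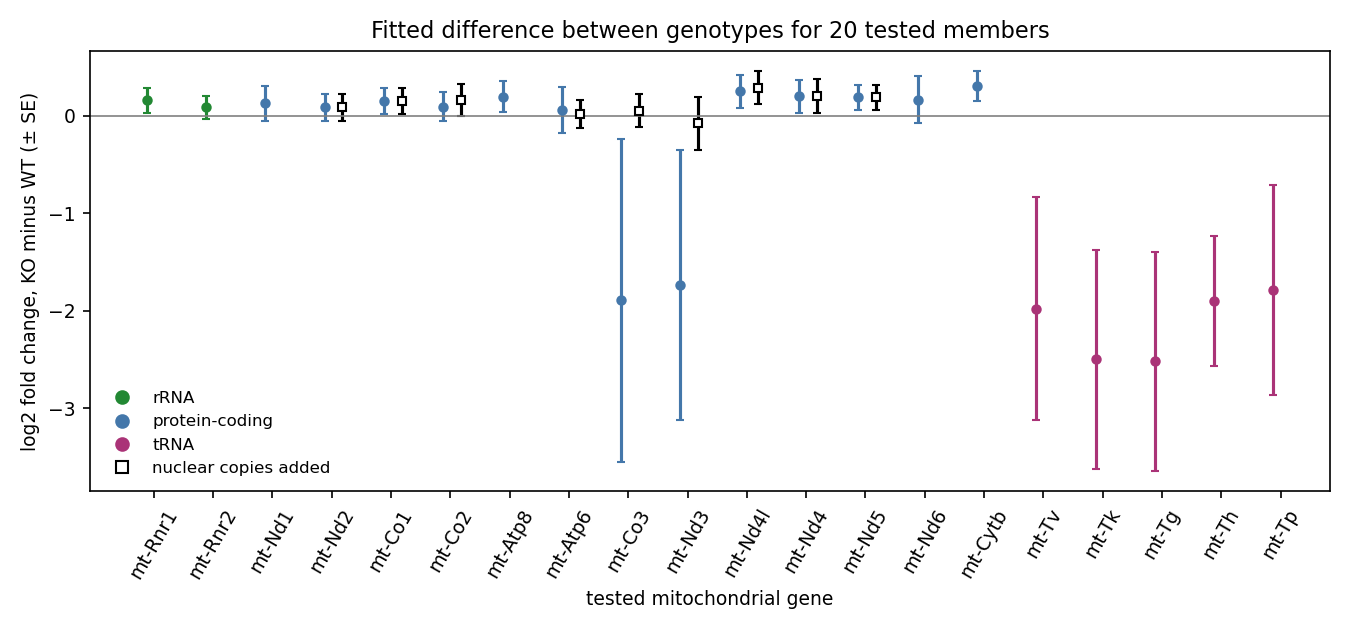
Fitted log2 fold change (KO minus WT, vertical axis) with its standard error for the 20 tested genes, coloured by class; open squares are the fit with nuclear copies added. mt-Co3 and mt-Nd3 move from -1.90 and -1.74 to 0.05 and -0.08 with the copies added, and the 5 tRNA genes lie between -2.52 and -1.79.

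The protein-coding genes differed widely among themselves per length, from mt-Atp6 at 3779 ± 447 CPM per kb (SD over 7 libraries) to mt-Nd3 at 174.5 ± 45.6, both with copies added. mt-Co1 followed at 3199, then mt-Atp8 at 1941, mt-Cytb at 1918 and mt-Co2 at 1857 CPM per kb. mt-Atp8 was above mt-Cytb in 3 of 7 libraries and mt-Cytb above mt-Co2 in 3 of 7, so the order of these neighbours does not hold across mice. mt-Co3 (1077) and mt-Nd5 (1044), and mt-Nd1 (893.6) and mt-Nd4 (853.1), also changed places between libraries, with the former higher in 4 of 7 in each pair. mt-Nd4l followed at 606.7 and mt-Nd2 at 472.1 CPM per kb. mt-Nd6, the only protein-coding gene on the minus strand, was at 290.4 ± 74 CPM per kb, below 11 of the 12 on the plus strand. With 150 bases taken off each length as a rough allowance for fragment size, mt-Atp8 moved from rank 5 to 3 and mt-Nd4l from 12 to 9 among the 15 rRNA and protein-coding genes, since both are short. Levels of genes this short therefore depend on how length is counted.

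**Figure D4:**
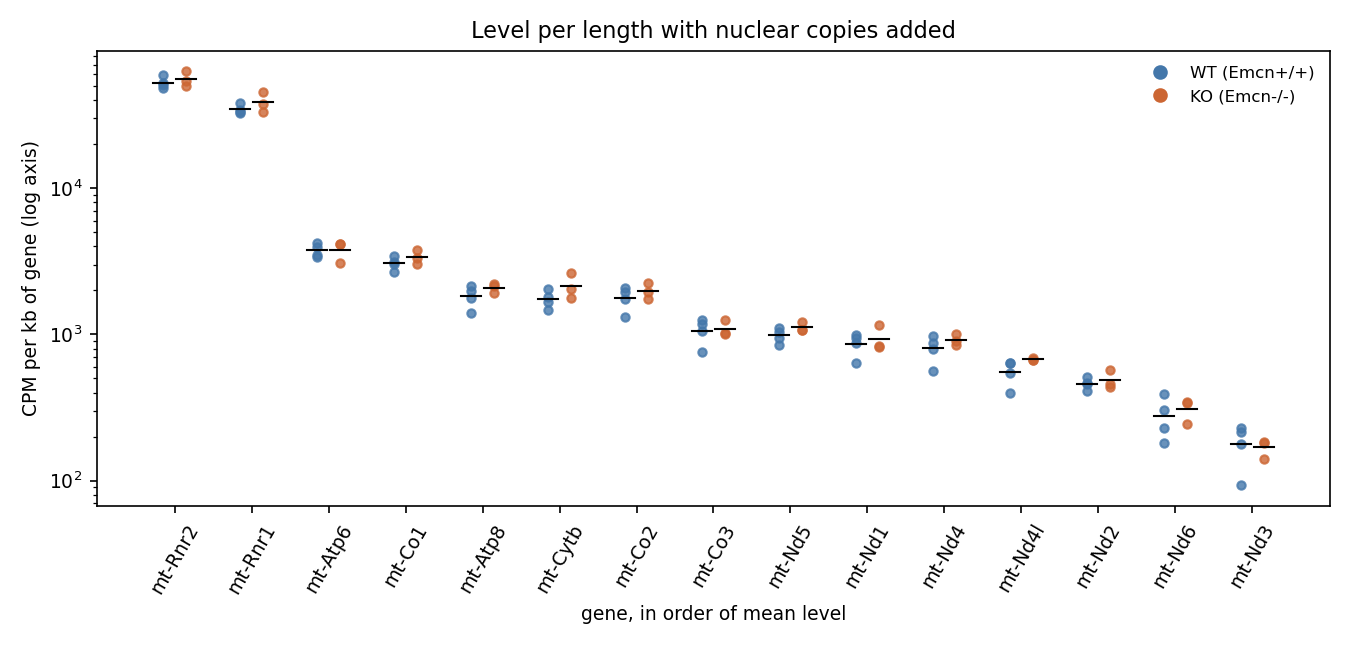
Level in CPM per kb of gene (log axis) of the 2 rRNA and 13 protein-coding genes, with nuclear copies added, in order of mean level; each point is 1 library, WT in blue and KO in orange, and black lines are group means. The rRNA genes lie at 32920 CPM per kb or more in all libraries and the protein-coding genes at 4200 or less.

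Single libraries were extreme for many of the genes. With the copies added, wt_312 was the lowest library for 10 of the 13 protein-coding genes and ko_320 the highest for 9. mt-Nd6 ran the other way in wt_312. Its level was 182, 230, 303 and 389 CPM per kb in WT and 243, 347 and 339 in KO, so wt_312 was its highest library and wt_284 its lowest. The ratio of mt-Nd6 to mt-Nd5, its neighbour on the other strand, was 0.194, 0.221, 0.274 and 0.455 in WT and 0.226, 0.324 and 0.278 in KO. Its log2 difference of 0.01 had an exact permutation p of 0.914 (adjusted p 0.914), and the sign turned to -0.15, -0.08 and -0.11 without wt_284, wt_290 and ko_314. The ends of mt-Nd5 and mt-Nd6 overlap by 14 bases on opposite strands. No source used here says whether reads were counted by strand, and sense and antisense reads of mt-Nd6 cannot be told apart. The ratio of mt-Atp8 to mt-Atp6 was 0.629, 0.756, 0.526 and 0.353 in WT and 0.998, 0.467 and 0.526 in KO, with an exact permutation p of 0.629 (adjusted p 0.838), and its log2 difference of 0.20 turned to -0.14 without ko_306 and to -0.01 without wt_312. The ratio of mt-Nd4l to mt-Nd4 was 0.69 ± 0.029 for WT and 0.716 ± 0.0619 for KO, with an exact permutation p of 0.543 (adjusted p 0.838).

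Of the 22 tRNA genes, 20 had lower mean CPM in KO and 2 (mt-Ty and mt-Ts2, both with very few counts) higher, and the groups overlapped for all 22. The 5 that were tested (mt-Tg, mt-Th, mt-Tk, mt-Tv and mt-Tp) had log2 fold changes from -2.52 to -1.79, and 0 were called. They held 75.6% of the 2025 tRNA counts of all libraries. mt-Tg, the tRNA of glycine, had 250, 136, 29 and 22 counts in WT and 61, 3 and 5 in KO, or 30.3, 12.8, 4.43 and 2.825 CPM against 5.25, 0.447 and 0.637 CPM. ko_306 lay above wt_310 and wt_312. Its log2 fold change was -2.52 ± 1.12 (SE), with an adjusted p of 0.992 in edgeR. With no filter on low counts edgeR called it (adjusted p 0.0247, the only one of the 37 genes called, where 0.272% of 29739 genes were called, 0.0168% higher and 0.256% lower), and DESeq2 did not. The edgeR fits that each left out 1 mouse kept the filter and gave it adjusted p from 0.726 to 0.9999. The fit with no filter was not repeated without single mice, so these values do not check that call. mt-Th, the tRNA of histidine, had 197, 100, 41 and 22 counts in WT and 36, 20 and 19 in KO, with -1.90 ± 0.67 (SE), an unadjusted p of 0.0142 and an adjusted p of 0.992 in edgeR.

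mt-Tk, the tRNA of lysine, had 142, 78, 14 and 5 counts in WT and 31, 2 and 4 in KO (-2.50 ± 1.12, SE). mt-Tv, the tRNA of valine between the 2 rRNA genes, had 100, 48, 6 and 2 in WT and 24, 4 and 5 in KO (-1.98 ± 1.14), and mt-Tp, the tRNA of proline on the minus strand, had 48, 30, 12 and 8 in WT and 23, 1 and 2 in KO (-1.79 ± 1.08). In each of the 5, wt_284 was the highest library and wt_290 the next. Without wt_284 the log2 fold changes shrank to -1.62 for mt-Tg, -1.12 for mt-Th, -1.50 for mt-Tk and -1.19 for mt-Tp, and mt-Tv did not pass the filter. With only the mice numbered above 300 they were -0.74, -0.67, -0.22 and -0.79 in the same order. Without ko_306 they were -4.50, -1.98, -4.03 and -3.74, and -2.83 for mt-Tv.

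Another 2 tRNA genes averaged at least 10 counts and were not tested. mt-Ta, the tRNA of alanine, had 36, 28, 3 and 0 counts in WT and 4, 0 and 0 in KO, and mt-Tn, that of asparagine, had 27, 26, 1 and 3 in WT and 11, 4 and 0 in KO. The remaining 15 (mt-Tf, mt-Tl1, mt-Ti, mt-Tq, mt-Tm, mt-Tw, mt-Tc, mt-Ty, mt-Ts1, mt-Td, mt-Tr, mt-Ts2, mt-Tl2, mt-Te and mt-Tt) had between 0 and 34 counts in a library. wt_284 and wt_290 each had counts for 21 of the 22 tRNA genes, ko_306 for 20, wt_310 for 18, ko_314 for 11, wt_312 for 8 and ko_320 for 5. mt-Tc and mt-Ts1 were at 0 in every KO library, but were also scarce in WT. mt-Tc had 1, 0, 1 and 0 counts in WT and mt-Ts1 had 2, 4, 1 and 0. The share of all genes at 0 in every KO library was not counted. The limit that a 0 sets is 3 counts, or 0.382 CPM for ko_320 and 0.447 CPM for ko_314, so these tRNAs were below detection and not shown to be absent. Genes on the plus strand, 14 of the 22, held 83.3% of tRNA counts. Per kilobase, the tRNA class stood at 2.97 to 77.5 CPM, against 1248 to 1792 CPM for the protein-coding class and 42770 to 56290 CPM for the rRNA class. These counts can come from tRNAs or from uncut precursors that span them, which cannot be told apart here.

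**Figure D5:**
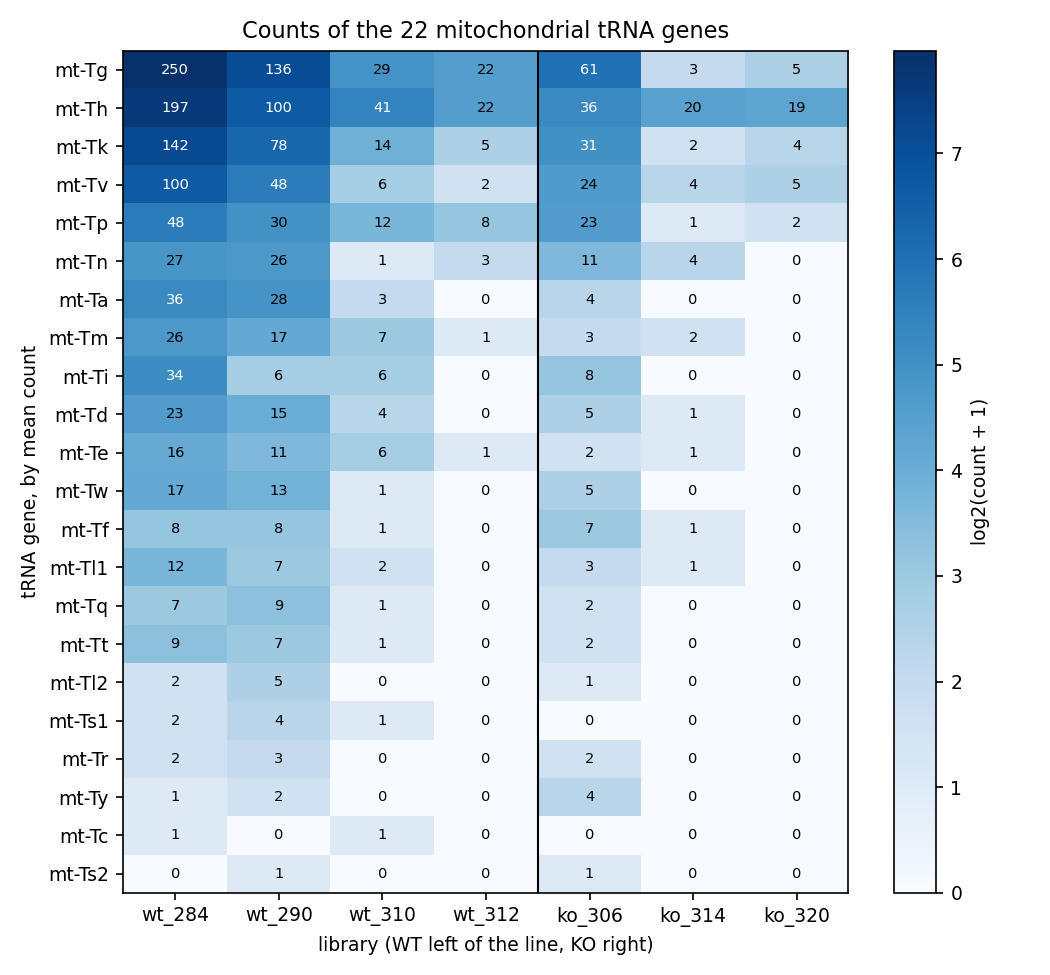
Counts of the 22 tRNA genes (rows, by mean count) in each library (columns, WT left of the line and KO right), printed in the cells and shaded by log2(count + 1). wt_284 and wt_290 hold counts for 21 genes each and ko_320 for 5, and ko_306 is fuller than wt_312.

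Other quantities moved with the tRNA counts across libraries. Sorted by tRNA share the libraries stood in the order wt_284, wt_290, wt_310, ko_306, wt_312, ko_314 and ko_320, which is the order of the mouse numbers but for wt_310 and ko_306 (0.00213% and 0.00212%). No source used here says what the numbers stand for, and the 2 lowest numbers are both WT. Nuclear snoRNA genes, also short and structured, held 0.248%, 0.165%, 0.132% and 0.0965% of counts in WT and 0.153%, 0.0798% and 0.0633% in KO. Nuclear miRNA genes held 0.607%, 0.519%, 0.355% and 0.339% in WT and 0.501%, 0.28% and 0.289% in KO, and nuclear rRNA genes held 4.25%, 2.18%, 1.60% and 1.58% in WT and 1.64%, 1.17% and 0.993% in KO. Nuclear snRNA genes held 0.273%, 0.149%, 0.126% and 0.139% in WT and 0.147%, 0.097% and 0.0755% in KO. In each of these classes wt_284 was highest and ko_314 or ko_320 lowest. The nuclear scaRNA and misc_RNA genes did not follow this order, with 0.0219% to 0.0318% and 1.18% to 2.14% of counts and wt_312 highest in both. The myeloid marker sum was 12180, 1125, 1160 and 243 CPM in WT and 592, 245 and 215 CPM in KO, with 0 of the 14 markers absent from KO. For 3 of the 14 every KO library lay below every WT library, as for 2.43% of all tested genes, and for 0 above. The part of these quantities in the tRNA values was not tested. The mitochondrial protein-coding and rRNA shares did not follow this order, with wt_284 the lowest library and ko_320 the highest in both.

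The nuclear genes that copy and express the mitochondrial genome showed no call. Of 60 listed genes, 59 were found and tested, 0 were higher and 0 lower at the threshold, 41 log2 fold changes were positive and 18 negative, and their median was 0.07 beside -0.02 over all tested genes. At an unadjusted p under 0.05 there were 5 of the 59, against 3.27% of tested genes. Tfam, which packs the genome and starts its transcription, averaged 60.4 ± 11.5 CPM for WT and 68.4 ± 6.53 CPM for KO, with 0.18 ± 0.19 (SE). The RNA polymerase Polrmt had 0.04 ± 0.23, its partner Tfb2m 0.05 ± 0.27, the helicase Twnk -0.16 ± 0.25 and the DNA polymerase Polg -0.11 ± 0.28. The elongation factor Tefm had 1.21 ± 0.44 (SE), with 7.88, 4.91, 4.43 and 6.68 CPM in WT and 7.66, 21.8 and 12.2 CPM in KO, and ko_306 within the WT range. It had an adjusted p of 0.992 in edgeR.

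Of the genes that act on the transcripts, Elac2, which cuts tRNA ends, had 0.05 ± 0.22 (SE). Lrpprc and Slirp, which together keep mRNAs stable, had 0.05 ± 0.16 and 0.29 ± 0.38, the poly(A) polymerase Mtpap had 0.19 ± 0.24, and Grsf1, of the RNA granules, had 0.09 ± 0.15. Pnpt1, the nuclease of mitochondrial RNA decay, had 0.52 ± 0.18, with 49.7, 50.4, 57.6 and 57.9 CPM in WT and 63.2, 81.1 and 87.1 CPM in KO. All KO libraries lay above all WT libraries for Pnpt1, as for 2.43% of all tested genes, and its adjusted p in edgeR was 0.992. Of the 19 aminoacyl-tRNA synthetases that charge mitochondrial tRNAs, 19 were tested, 0 were called in either direction, 10 were positive and 9 negative, and the median was 0.03, from -0.65 (Aars2) to 0.55 (Hars2). Of 72 nuclear subunits of complexes I, III, IV and V, 71 were tested, 0 were called in either direction, 40 were positive and 31 negative, and the median was also 0.03, from -0.74 (Atp5g2) to 0.60 (Ndufs6).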

How the data were processed

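RNA from sorted LT-HSCs of 7 mice was sequenced from SMARTer stranded total RNA libraries of pico input, per the labels' protocols. The authors deposited estimated counts per gene, as whole numbers without scaling, made with cutadapt and Salmon per the submitters' processing notes. No source used here gives tool versions, annotation, strand setting or rounding. The molecule label reads polyA RNA, although the kit takes total RNA. Of 54347 identifiers, 99.5% were in GENCODE M21, and 0 value columns were left unused.

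Genotypes were tested in R 4.3.3 with edgeR 4.0.16 (TMM, filterByExpr, robust quasi-likelihood, threshold 0.05, 15372 genes tested). The standard error is the log2 fold change over the square root of F. Ratios used two-sided exact permutation over 35 splits. Totals ranged from 6444134 to 11101774 counts, limits cover counting error only, and every pair of libraries differed beyond sampling noise (chi-square per degree of freedom at least 7.069). The fit was tested on simulated data.

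Nuclear copies were nuclear GENCODE transcripts that matched a member over at least 100 bases at 95% identity in BLAST+ 2.17.0. The rule had named chromosomes, but no genome sequence was used here. Named were all 37 members, 12 set genes of mitochondrial expression, any listed gene past the threshold, the 5 copies with most counts, and Emcn. Other copies, and the genes given under the other observations, were named after their values were seen. Members and lists were chosen with earlier results of these data known. Alternatives were DESeq2 1.42.0, RLE factors, other filters, library sizes without the members, shares without structured RNAs, shortened gene lengths, copies added, mice above 300 and leaving out each mouse.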

Additional observations from a re-analysis of the deposited data

Results flagged for a closer look

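Of 40 sets of WT values checked, 1 had a library far from the other 3, where about 1 in 20 would be flagged by chance. It was Slirp, the partner of Lrpprc in keeping mitochondrial mRNAs stable, with 11.6 CPM in wt_310. The other WT mice had 6.935 to 7.37 CPM and the KO mice 9.84 to 10.6 CPM.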

How the results depend on the processing

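No paired analysis was possible because each mouse number occurs in only 1 library. The number of genes called, 1 in the main fit (0 higher, 1 lower), was 13 with DESeq2 (2 higher, 11 lower), 81 with no filter (5 and 76), 7 with only mice above 300 (4 and 3), and 1 to 3 when each mouse was left out (0 to 1 higher, 1 to 3 lower), with the cause not tested. Without wt_284 it was 3, without ko_306 3, and without wt_290 or ko_314 2 each. Of the 37 members, mt-Tg with no filter was the only one called under any setting tried. Without ko_306 mt-Nd3 had -7.37, a value set by the prior count, since the other KO libraries had 0 counts. The class shares kept the direction of their difference under every alternative, but not its size. Leaving out each mouse gave 0.518 to 1.92 points for all members, 0.437 to 1.66 for rRNA, 0.0837 to 0.267 for protein-coding and -0.00494 to -0.00172 for tRNA genes, and mice above 300 gave 0.582, 0.493, 0.0894 and -0.000428. The sign turned for mt-Co3 with copies added (0.049), for mt-Atp6 (-0.14), mt-Nd6 (-0.16), Twnk (0.135) and Polg (0.30) with mice above 300, and the cause was not tested. When each mouse was left out, log2 fold changes that changed sign ranged from -0.0759 to 0.291 for mt-Atp6, -0.0385 to 0.213 for mt-Nd1, -0.0212 to 0.14 for mt-Nd2, -0.0412 to 0.164 for Polrmt, -0.0769 to 0.205 for Tfb2m, -0.262 to 0.189 for Polg, -0.0303 to 0.21 for Elac2 and -0.0669 to 0.122 for Lrpprc. So did the ratios, from -0.146 to 0.265 for mt-Nd6 to mt-Nd5, -0.138 to 0.41 for mt-Atp8 to mt-Atp6 and -0.0174 to 0.102 for mt-Nd4l to mt-Nd4. Low counts limit the tRNA genes most, with 35 to 960 in all per library.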

Other observations

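Among the nuclear genes listed, some had groups that did not overlap without passing the test (adjusted p 0.992 in edgeR for each), and they are named here after their values were seen. Beside Pnpt1, all KO libraries lay above all WT libraries for Mgme1, a nuclease of mitochondrial DNA replication (mean ± SD of 30.7 ± 8.29 CPM for 4 WT mice and 47.2 ± 10.3 CPM for 3 KO mice), for Mrm2, a methyltransferase of the large subunit rRNA (2.55 ± 1.14 and 6.76 ± 2.95 CPM), and for Mettl15, a methyltransferase of the small subunit rRNA (6.03 ± 1.29 and 10.01 ± 4.64 CPM). That made 4 of 59, where 2.43% of all tested genes were placed so. Of the synthetases, Hars2 (27.7 ± 3.43 and 40.6 ± 7.07 CPM) and Iars2 (78.5 ± 7.49 and 89.4 ± 4.83 CPM) were placed the same way. They were 2 of 19, where 2.43% of all tested genes were placed so. Of the nuclear respiratory subunits, Uqcrc1 of complex III (104.0 ± 12.6 and 89.0 ± 2.515 CPM) and Ndufb6 of complex I (11.2 ± 0.988 and 7.66 ± 0.931 CPM) had every KO library below every WT library, 2 of 71 where 2.43% of all tested genes did.

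Lars2, the leucine synthetase, stood far above the other synthetases in counts, at 2192 CPM in wt_284, 718 to 1055 CPM for the remaining WT mice and 782 to 896 CPM for KO.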
